A study of Mus musculus with 3 samples.

Results

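Genes for proteins that travel in blood plasma were followed across 3 epithelial cell lineages of the mouse stomach. The set holds 5 genes of the 18194 that the array names, chosen with their levels on these arrays known. They are Ttr (transthyretin), Rbp4 (the retinol carrier of plasma), Apoa1 and Apoe (apolipoproteins) and Hc (complement component C5), and all 11 probe sets that name 1 of these genes alone were used. The lineages are acid-secreting parietal cells, zymogenic (chief) cells, the source of pepsinogen, and mucous pit cells of the upper gastric unit. They were collected by laser capture with a 7.5 µm spot and measured on 1 Affymetrix whole-genome mouse expression array each. Parietal cells were those that bound the lectin DBA and were autofluorescent, pit cells were E-cadherin-positive and DBA-negative cells of the same units, and zymogenic cells were E-cadherin-positive cells of the unit base that bound neither GSII nor DBA. Each RNA sample was a 20 ng pool from 4 to 5 mice and 3000 to 5000 cells, amplified before labelling. The sample labels name nuclear RNA and the design text total RNA, so the RNA fraction behind the intensities is not settled here. No treatment or genetic change is named for any group, and neither strain, sex nor age is stated in the sources used here.

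These proteins belong to the transport and defence systems of plasma, and the liver is their best-known source. Transthyretin carries thyroxine and, through a complex with retinol-binding protein, vitamin A, and it is also made by the choroid plexus and by endocrine cells of the pancreatic islet. Apolipoprotein A-I is the main protein of high-density lipoprotein and is made by liver and small intestine. Apolipoprotein E directs lipoprotein remnants to their receptors and is abundant in macrophages. Complement C5 is cleaved to an attractant of leukocytes and to the fragment that starts the membrane attack complex, and it is not a carrier in the strict sense.

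Levels are intensities on a linear scale, as the authors deposited them. A detection floor of 23.3 was taken from 80 probe sets for olfactory and vomeronasal receptors, and a fold against a value at or under it is a lower bound, introduced by "at least". Each lineage has a single array, so that no replicate error and no test between lineages can be given, and this number of arrays limits precision throughout. The only available measure of scatter is the disagreement between probe sets of 1 gene, whose log2 ratios between arrays had an SD of 0.48 over 785 combinations of gene and array pair (388 genes). Probe sets of 1 gene read the same 3 RNA pools and are not replicates of a lineage. In such bulk samples, fewer cells of a type and less RNA per cell cannot be told apart. Zymogenic cells came from other slides than the other lineages, and an effect of slide cannot be told apart from one of lineage there. Among 1186 genes that exceeded the floor everywhere, the zymogenic minus parietal log2 difference had a median of -0.64, parietal minus pit one of 0.29 and zymogenic minus pit one of -0.21.

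Transcripts of 3 of the 5 genes were above the floor on at least 1 array, as were 4138 of all 18194 genes. Rbp4 and Apoe were under it on every array. Ttr and Hc were highest on the zymogenic array and Apoa1 on the parietal array, and none of the 3 was highest on the pit array. Among the carriers proper, RNA in gastric cells was thus detectable for Ttr and Apoa1 and not detectable for Rbp4 and Apoe at this detection limit.

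**Figure D1:**
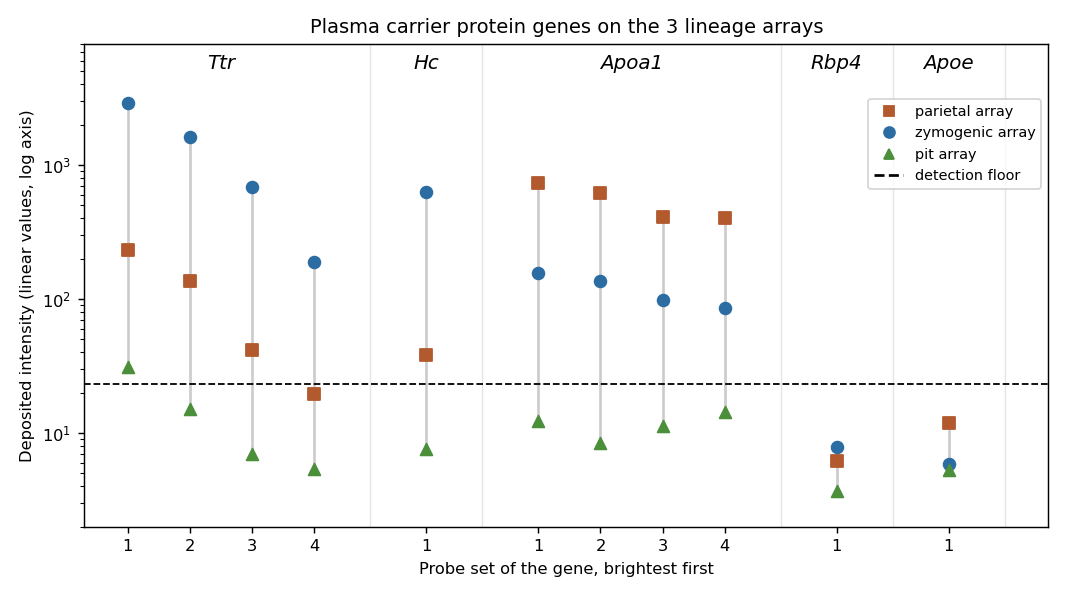
Deposited intensity (log axis) of each of the 11 probe sets of Ttr, Hc, Apoa1, Rbp4 and Apoe on the parietal (square), zymogenic (circle) and pit (triangle) arrays, 1 value per array, with the detection floor of 23.3 as a dashed line. The 4 Ttr probe sets and the Hc probe set have the zymogenic value on top, the 4 Apoa1 probe sets the parietal value, and Rbp4 and Apoe lie below the floor throughout.

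Ttr, the thyroxine and retinol carrier complex protein, had the zymogenic array highest in each of its 4 probe sets. The pit array was below the parietal in the 3 probe sets with a parietal value above the floor. The brightest of them read 232 in the parietal sample, 2889 in the zymogenic sample and 31.1 in the pit sample. It was the only one above the floor on all 3 arrays, and there the zymogenic value was 12.4-fold above the parietal and 92.9-fold above the pit value, with parietal 7.47-fold above pit. The lineages were thus widely spaced for this probe set, with log2 steps of 3.64 and 2.90 between neighbours in the order.

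The further Ttr probe sets were dimmer. The second read 136 in the parietal, 1610.3 in the zymogenic and 15.2 in the pit sample. The third read 41.9, 683 and 6.98 in the same order. In both, the pit value lay under the floor, so that the zymogenic array was at least 69.2-fold and at least 29.4-fold above it. The parietal array was at least 5.86-fold above pit in the second and at least 1.80-fold in the third, where that order is uncertain. The fourth read 19.4, 188 and 5.37, which leaves the zymogenic array as the only one above the floor, at least 8.09-fold above the others.

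Among the 3 Ttr probe sets measured on both arrays, the zymogenic to parietal ratio ran from 11.8-fold to 16.3-fold, a mean log2 difference of 3.74 with an SD of 0.25 between probe sets. This spread was smaller than the 0.48 found over all genes. Of the 1497 genes above the floor on both arrays, Ttr held rank 15 from the highest in this ratio. In zymogenic over pit it held rank 4 of 1277 genes, and in parietal over pit rank 13 of 1984. All 4 probe sets carry suffixes (_a, _s or _x) that mark probes shared between transcripts or open to cross-hybridisation, and no probe set specific to 1 Ttr transcript exists in the table used here.

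**Figure D2:**
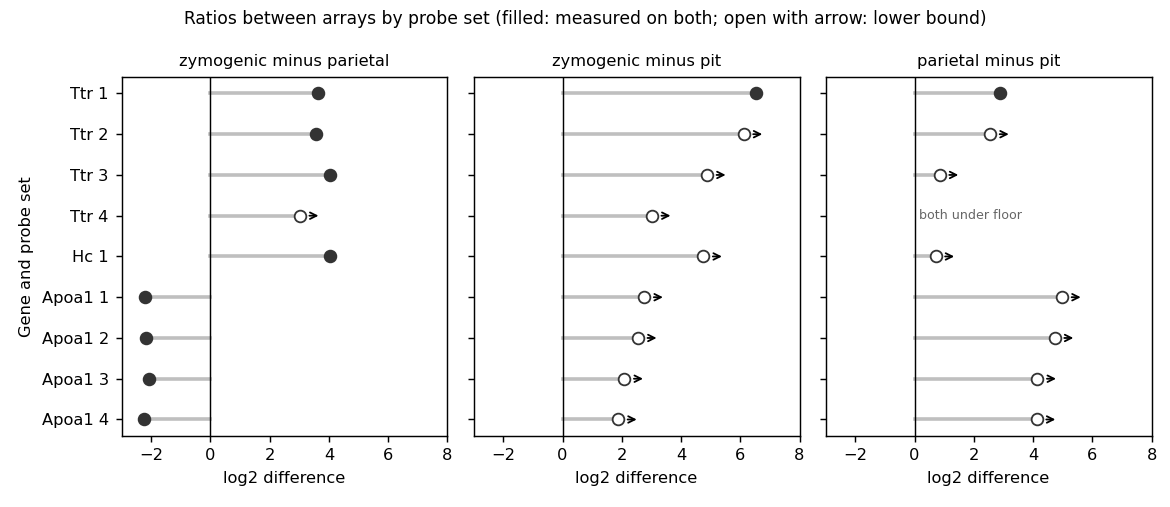
Log2 differences between arrays for the 9 probe sets above the floor on at least 1 array, numbered per gene from the brightest, in 3 panels for zymogenic minus parietal, zymogenic minus pit and parietal minus pit. Filled points were measured on both arrays and open points with arrows are lower bounds; the Ttr and Hc points lie to the right and the Apoa1 points to the left in the first panel.

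Hc encodes complement C5 and was represented by 1 probe set. Its level was 627 in the zymogenic sample, 38.0 in the parietal sample and 7.61 in the pit sample. The zymogenic value was 16.5-fold above the parietal value and at least 26.9-fold above the pit array, a log2 difference of 4.04 and of at least 4.75. Hc held rank 10 of 1497 genes from the highest in the zymogenic to parietal ratio, ahead of Ttr. The parietal value was close to the floor and the pit value under it. They were at least 1.64-fold apart, a log2 bound of 0.71 that is not far outside the scatter between probe sets, so their order is uncertain.

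Apoa1, the main protein of high-density lipoprotein, had the parietal array on top in each of its 4 probe sets and the pit array under the floor in each. The brightest read 734 in the parietal sample, 158 in the zymogenic sample and 12.4 in the pit sample. The second read 618, 136 and 8.40 in that order. The other two read 412 and 405 in the parietal sample, 98.9 and 85.3 in the zymogenic sample, and 11.2 and 14.4 in the pit sample. In all 4 the zymogenic value was intermediate and above the floor. All 4 carry the suffix _a or _x, so the limit given for Ttr holds for Apoa1 too.

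The parietal to zymogenic ratio of Apoa1 ran from 4.16-fold to 4.75-fold over the 4 probe sets, a mean log2 difference of 2.18 with an SD of 0.084. Against the pit array the parietal value was at least 17.4-fold to at least 31.6-fold higher, and the zymogenic value at least 3.67-fold to at least 6.77-fold higher. Of the 1497 genes above the floor on both arrays, Apoa1 held rank 80 from the lowest in zymogenic over parietal. After quantile normalization, which makes the value distributions of the arrays equal, its parietal minus zymogenic log2 difference was 1.39 in place of 2.22. Scaling by the hybridisation controls BioB and BioC gave 3.45. These controls averaged 303 on the parietal array against 711 (zymogenic) and 712 (pit), so this scaling raises the parietal array relative to the others. The Cre controls differed less, at 9453, 9117 and 9268 in that order.

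Rbp4 and Apoe were not detectable at this floor. Rbp4, which carries retinol from the liver and binds transthyretin, read 6.17 in the parietal, 7.94 in the zymogenic and 3.72 in the pit sample with its 1 probe set. Apoe, the receptor ligand of lipoprotein remnants, read 11.8, 5.86 and 5.30 with its 1 probe set. No order of lineages can be read for either gene. At a lower floor of 10.9, the 90th percentile of those receptors, Apoe was just above it in the parietal sample and Rbp4 still under it. With arrays scaled by BioB and BioC, Apoe in the parietal sample (22.4) was also just above the floor of that setting (21.3).

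By the rule of at least 2-fold above both other arrays, 2 of the 5 genes (Ttr and Hc) were called on the zymogenic array, where 6.91% of the 4138 genes above the floor on at least 1 array were called. On the parietal array it was 1 of 5 (Apoa1) against 7.49%, and on the pit array 0 of 5 against 5.78%. At least 2-fold below both others were 2 of 5 on the pit array (Ttr and Apoa1) against 2.61%, 0 of 5 on the zymogenic array against 11.1% and 0 of 5 on the parietal array against 0.387%. Rbp4 and Apoe, under the floor everywhere, could not be called, so only 3 of the 5 genes are comparable with these shares. Since these values chose the genes, the counts describe the set and support nothing further. A threshold of 4-fold left all of these member counts as they were, with shares over all genes of 2.59%, 1.16% and 0.894% for higher on the zymogenic, parietal and pit arrays and of 3.94%, 0.0483% and 0.507% for lower.

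Promoter sequence was examined for 4 of the genes, with 7 annotated starts among them, in the RefSeq windows of 300 bases of the mouse assembly GRCm38.p6, and Ttr is not in that table. The 250 bases before the start of Hc and Apoa1 are shown because these genes were highest on different arrays, and capitals mark matches to the motifs listed after them. The Hc stretch is chr2:35061413-35061662 on the minus strand and the Apoa1 stretch chr9:46228380-46228629 on the plus strand, both written 5′ to 3′ toward the start.
Hc: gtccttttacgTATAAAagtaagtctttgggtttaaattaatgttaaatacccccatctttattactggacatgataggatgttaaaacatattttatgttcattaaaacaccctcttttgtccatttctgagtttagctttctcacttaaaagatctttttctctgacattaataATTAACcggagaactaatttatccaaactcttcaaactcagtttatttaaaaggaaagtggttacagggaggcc
Apoa1: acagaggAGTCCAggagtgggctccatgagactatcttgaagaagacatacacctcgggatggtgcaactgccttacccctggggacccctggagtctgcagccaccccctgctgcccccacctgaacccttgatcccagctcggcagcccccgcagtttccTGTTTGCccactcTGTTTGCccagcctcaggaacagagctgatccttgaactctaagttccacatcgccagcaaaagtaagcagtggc
The Hc stretch has 31.2% G and C and the Apoa1 stretch 58.0%.

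The motifs searched, on both strands, were cores bound by liver and gut transcription factors. For HNF1 (GTTAAT), Hc had 1 match at positions -74 to -69 from the start and Apoe had 1, where 7.1% of all 32851 windows hold it. For the forkhead factors of the FOXA group, Apoa1 had 2 matches of TGTTTGC, which 5.07% of windows hold, and Rbp4 and Apoe each 1 of TGTTTAC, held by 3.65%. The HNF4 core AGTCCA, which is also the end of the longer form CAAAGTCCA, was matched once in Apoa1 (14.1% of windows), and the longer form (0.475%) in none of the 7. The relaxed C/EBP form TTGCNNAA matched once in Rbp4 (10.8%), its palindrome TTGCGCAA (0.183%) in none, the E-box CAGCTG (16.3%) in none, and the stress core ACGTG once in Rbp4 (19.6%). TATAAA was matched in 3 of the 7 windows, of Hc, Rbp4 and Apoe (13.6%), and the Rbp4 match lay at -28 to -23. A match is a stretch of letters and is not evidence of binding.

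**Figure D3:**
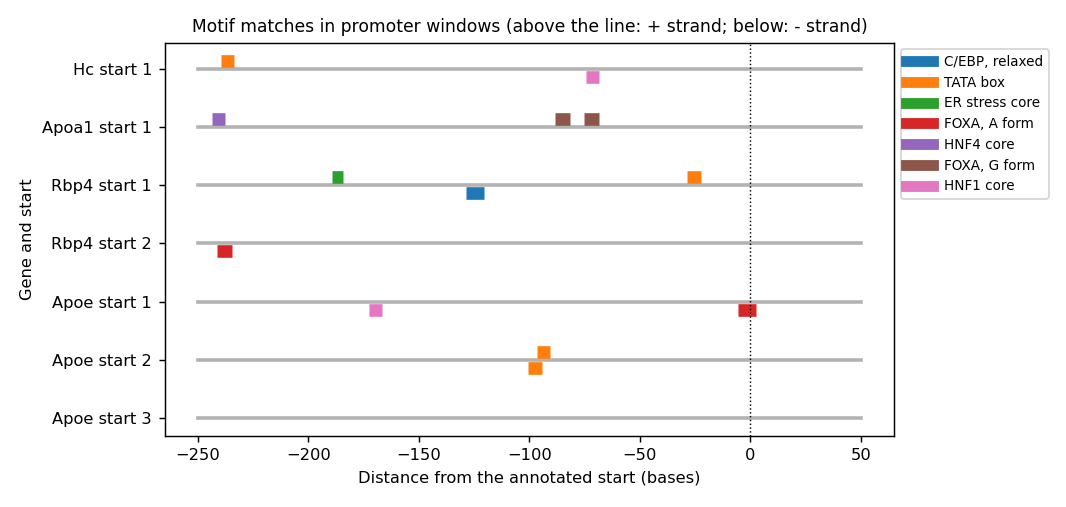
Positions of the motif matches in the 7 promoter windows of Hc, Apoa1, Rbp4 and Apoe, as distance in bases from the annotated start, with plus-strand matches above and minus-strand matches below each line. The 2 FOXA matches of Apoa1 and the HNF1 match of Hc lie within the last 100 bases before the start.

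Partners of these proteins were taken from 6 lists of related genes, which hold 145 further genes with a probe set, 38 of them above the floor on at least 1 array. Of all 18194 genes, 4138 were, and each list count above the floor is to be read beside that share. On the parietal array 4 of the 38 exceeded both others by at least 2-fold (10.5%), while on the zymogenic array it was 5 genes (13.2%) and for pit cells 2 (5.26%), where the shares over all genes were 7.49%, 6.91% and 5.78%. At least 2-fold below both others were 0, 3 (7.89%) and 3 (7.89%) of them in the same order, against 0.387%, 11.1% and 2.61% of all genes. The lists were chosen with earlier results of these data known, so these shares describe them and support nothing further. They rest on few genes and changed with scaling, with 18 genes called higher on the parietal array when the arrays were scaled to BioB and BioC and 2 after quantile normalization.

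For retinol and thyroid hormone transport and uptake, 5 of 25 genes were above the floor, and the median log2 difference of the zymogenic array from the mean of the others was -0.50 against -0.17 over all genes. Lrp2, the large endocytic receptor known as megalin that takes up retinol-binding protein and transthyretin in the kidney, stood at 187 in the zymogenic sample against 4.93 in the parietal and 0.90 in the pit sample, at least 8.06-fold higher. Its 2 further probe sets did not exceed the floor. Aldh1a1, which oxidises retinaldehyde to retinoic acid, was highest on the parietal array (187 against 26.8 and 52.5). The other genes above the floor were Dhrs3, Aldh1a3 and Thra, none of them 2-fold above or below both other arrays, though Dhrs3 was at least 2.79-fold higher on the pit than on the zymogenic array (64.9 against 13.5). Serum albumin (Alb) and the retinol receptor Stra6 were among the 20 under it.

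A list of 20 further apolipoproteins and related genes, among them the enzyme gene Apobec1, had 6 above the floor, with median log2 differences from the mean of the other arrays of 0.42 (parietal), 0.12 (zymogenic) and -0.54 (pit) against 0.057, -0.17 and -0.052 over all genes. Clu, an extracellular chaperone also called apolipoprotein J, stood at 2832 in the parietal sample against 510.0 in the zymogenic and 471 in the pit sample, but was no longer 2-fold above both after quantile normalization. Apoc2, the cofactor of lipoprotein lipase, was highest on the zymogenic array (85.1 against 17.3 and 22.5, at least 3.66-fold). Apobec1, which edits Apob messenger RNA, was at 2.40 on the zymogenic array against 63.2 and 65.6, at least 2.72-fold lower. Apoa4, a neighbour of Apoa1 in the genome, read 38.0, 36.2 and 5.32 in the parietal, zymogenic and pit samples, and Apob, the structural protein of very-low-density lipoprotein, read 34.7, 27.4 and 4.97. Both lay close to the floor and were called on no array, and Apoa2 and Apoc3 were under it.

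Of 17 genes for lipoprotein assembly, remodelling and uptake, 8 were above the floor. Lpl, lipoprotein lipase, read 129 and 126 in the parietal and zymogenic samples against 40.6 in the pit sample. Scarb1, the receptor for high-density lipoprotein, was highest on the pit array (61.0 against 19.6 and 5.63), a call kept under 3 of 9 alternatives and lost with the BioB and BioC controls. Mttp, the transfer protein needed to load lipid on apolipoprotein B, was under the floor on every array.

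Complement genes other than Hc were above the floor in 7 of 27 cases. C2, part of the convertase of the classical pathway, was at 85.4 on the zymogenic array against 5.44 and 12.4, and Masp1, a protease of the lectin pathway, at 68.2 against 11.4 and 7.22. The further probe sets of C2 were under the floor. A second Masp1 probe set was above it on the pit array alone, at 18.3, 10.3 and 24.7 in parietal, zymogenic and pit order, so that the probe sets of Masp1 disagree, and neither gene was called with the mean over all of its probe sets. Cfi, the protease that inactivates C3b and C4b, was highest on the parietal array, at 111 against 28.8 and 8.43. Cd59a, which blocks the membrane attack complex on cells, was highest on the pit array (71.0 against 21.5 and 16.0), but its 2-fold call was lost with the BioB and BioC controls. The terminal components C6, C8a, C8b, C8g and C9, which assemble after C5 in that complex, were all under the floor.

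Of 34 other liver plasma proteins, 3 were above the floor, namely Serpinf1, Itih1 and Agt, and none of these exceeded 24.5. The 31 others, among them haptoglobin (Hp), hemopexin (Hpx) and the fibrinogen chains Fga, Fgb and Fgg, were under it on every array.

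Of 22 transcription factors that act on hepatocyte and gut endoderm genes, 9 were above the floor. Xbp1, which expands the secretory pathway, was highest on the zymogenic array (539 against 263 and 103), only 2.05-fold above the parietal. Its zymogenic call was kept under 4 of 9 alternatives. Among others, it was lost with the arrays scaled to 1 median or to BioB and BioC, and with the floor as pseudocount. Hnf4a was at 25.3 in the zymogenic sample against 92.9 in the parietal and 116 in the pit sample, and Foxa2 at 20.4 against 90.7 and 54.5, both at least 2-fold lower on the array where Ttr and Hc were highest. Hnf4a was not called with the mean over its 4 probe sets, of which 3 were under the floor. The Foxa2 call was kept under 6 of 9 alternatives and lost with the pseudocount, among others. Foxa1 was at 78.9, 63.5 and 48.0 on the parietal, zymogenic and pit arrays, Cebpd at 48.8, 71.4 and 11.6, and Rora, called on the parietal array from 1 of 9 probe sets, at 51.1, 2.65 and 7.69.

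**Figure D4:**
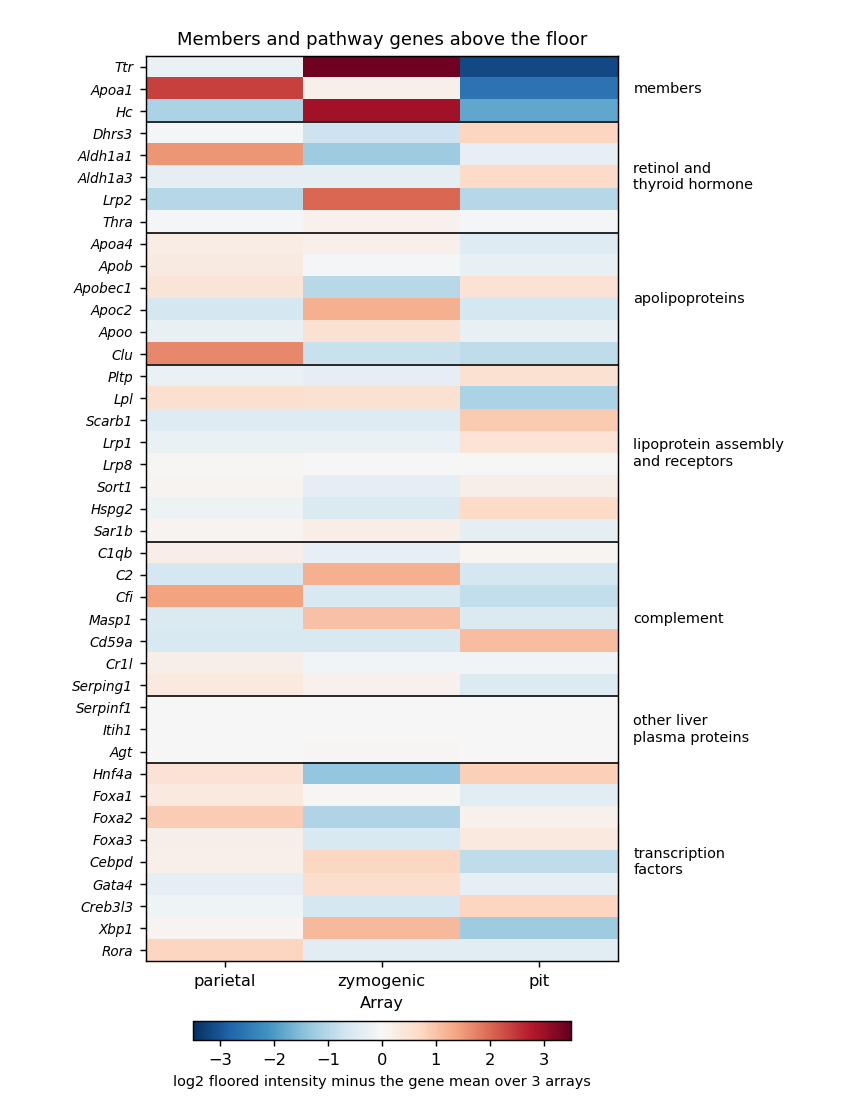
Floored log2 intensity of Ttr, Apoa1, Hc and the 38 related genes above the floor, minus the mean of each gene over the 3 arrays, with columns for arrays, rows for genes grouped by list, and colours from -3.5 (blue) to 3.5 (red). Ttr, Hc and Lrp2 are deepest red on the zymogenic array and Apoa1 on the parietal array, while the other liver plasma proteins show almost no colour because they lie at the floor.

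Markers of other cell types that could carry these transcripts were read on the same arrays. All marker lists here and below were chosen with earlier results of these data known. Their counts therefore describe the lists and support nothing further. Beside each count above the floor stands the share over all genes, 4138 of 18194 on at least 1 array. Hepatocyte markers were above the floor for 2 of 15 genes (Cps1 and Cyp2e1), none above 32.2, and their summed intensity was 105, 125 and 133 on the parietal, zymogenic and pit arrays. Alb, the defining plasma protein of hepatocytes, read 3.91, 8.46 and 5.41. Endothelial markers (8 genes) and the 3 erythrocyte genes with a probe set were under the floor throughout, and 3 further erythrocyte genes have no probe set. Of 9 lymphocyte markers 2 were above the floor, Cd79a at 48.8 and Ptprc at 23.7, both on the zymogenic array alone. Of 7 smooth muscle markers 2 were above it. Acta2 read 83.3, 146 and 83.8 on the parietal, zymogenic and pit arrays, and Des 31.8 on the zymogenic array alone. The part of such cells in the values of the members was not tested.

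The endocrine markers above the floor were highest on the zymogenic array, as Ttr and Hc were. Of 23 such genes, 7, 0 and 1 were above the floor on the zymogenic, parietal and pit arrays. Over all 18194 genes it was 2285, 2809 and 2616. Summed intensities of the list were 1124, 98.0 and 149. On the zymogenic array 4 (Chga, Chgb, Ghrl and Sst) exceeded both others by at least 2-fold, where 6.91% of all genes above the floor did. Hdc, Gcg and Pcsk1n did not, and 16 genes were under the floor everywhere. Unlike Ttr and Hc, no endocrine marker was above the floor on the parietal array. Chga, the granule protein chromogranin A, stood at 453 on the zymogenic array against 22.7 and 14.1. Ghrl, the hormone ghrelin, stood at 298 against 7.43 and 29.2, and Sst (somatostatin) at 75.9 against 1.30 and 1.19, while Gast (gastrin) was under the floor. The part of endocrine cells in the zymogenic values of Ttr and Hc was not tested.

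Most zymogenic markers were highest on the same array as both genes. Of 9 markers with a probe set, 8 were above the floor and 6 exceeded both other arrays by at least 2-fold on the zymogenic one, where 6.91% of all genes did, and the summed intensity of the list was 36620.3 there against 4487 (parietal) and 419.9 (pit). The zymogenic to parietal ratio was 21.1-fold for Pgc (pepsinogen C), 15.8-fold for the phospholipase Pla2g1b, 42.8-fold for the chitinase Chia1 and 3.62-fold for colipase (Clps), and the 12.4-fold of Ttr and 16.5-fold of Hc lie within this range. These 4 markers were above the floor on the parietal array. Cblif (gastric intrinsic factor) and the transcription factor gene Bhlha15 were under it there, at 2.62 against 558 and 2.49 against 109 on the zymogenic array, at least 24.0-fold and at least 4.68-fold higher. The further genes above the floor were higher on the parietal array, Tff2 (a trefoil peptide also made by mucous neck cells) at 402 against 21.9 and Pga5 (a pepsinogen) at 47.6 against 30.9. The part of zymogenic cells or their RNA in the parietal values was not tested.

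Beside Apoa1, parietal markers were mixed. Of 13 such genes, 7 were above the floor on at least 1 array. On the parietal array 3 (Atp4b, Car2 and Clic6) were at least 2-fold above both others, where 7.49% of all genes above the floor were. Kcnq1 was at least 2-fold above both others on the zymogenic array. The list summed to 5879.5 on the parietal array, with 1351 (zymogenic) and 548 (pit) elsewhere. Atp4b, the beta subunit of the proton pump, had a parietal to zymogenic ratio of 5.55-fold, near the 4.66-fold of the brightest Apoa1 probe set. The other markers above the floor were widely spread. Car2 was at least 31.4-fold and Ezr at least 6.11-fold, while Clic6 was at 2.14-fold, Slc4a2 at 0.89-fold, Atp4a at 0.82-fold and Kcnq1 at 0.48-fold. Fibroblast markers were highest on the same array, with 6 of 9 above the floor and sums of 432, 200.3 and 143, and their part in the Apoa1 values was not tested. Pit markers summed to 20589, 246 and 15141 on the parietal, zymogenic and pit arrays, of which the secreted gastrokines Gkn1 (10493) and Gkn2 (7987) made up most on the parietal array. Of 13 pit markers, 12 were above the floor on at least 1 array. On the pit array 4 were at least 2-fold above both others and on the parietal array 2. Over all genes above the floor these shares were 5.78% and 7.49%. The list had a median log2 difference from the mean of the other arrays of 2.11 (pit) and 1.30 (parietal). The part of pit cells in the parietal value of Apoa1 was not tested. Macrophage markers, of interest for Apoe, had 5 of 14 genes above the floor and sums of 298, 479.6 and 145. Csf1r, the receptor of a macrophage growth factor, made up 374 of the zymogenic sum, and Adgre1, Lyz2, C1qb and Ctss read lower on the zymogenic than on the parietal array.

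**Figure D5:**
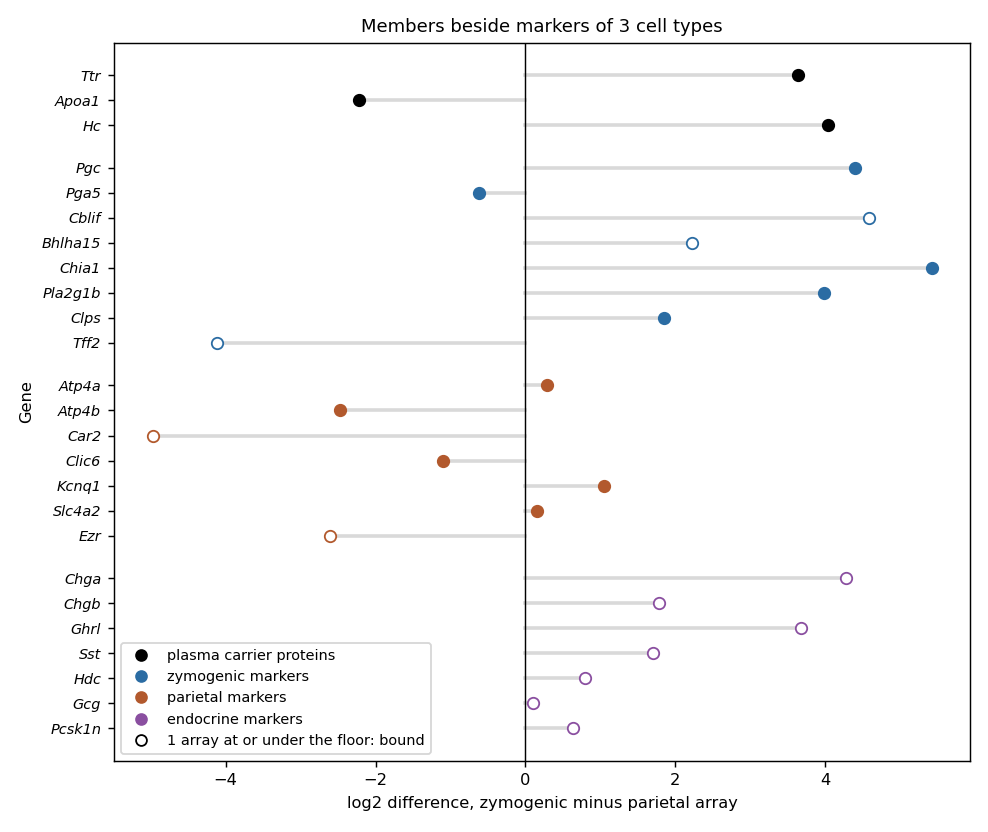
Log2 difference of the zymogenic from the parietal array for Ttr, Apoa1 and Hc beside the zymogenic, parietal and endocrine markers above the floor, with open points where 1 of the 2 arrays was at or under the floor. Ttr (3.64) and Hc (4.04) lie above the zymogenic marker Clps and below Pgc and Chia1, the zymogenic-list genes Tff2 and Pga5 lie on the parietal side, and Apoa1 lies close to Atp4b.

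Genes with the most similar pattern were sought among the 4138 above the floor, by the distance between log2 values centred on their mean over the 3 arrays. For Ttr the nearest were Pdia2, a protein disulfide isomerase of the pancreas (164, 2520.4 and 8.46 in parietal, zymogenic and pit order, distance 0.22), Clvs1 (distance 0.26) and Dcaf17 (0.36). For Hc they were the magnesium channel gene Trpm6 (39.0, 700.4 and 10.8, distance 0.12), Ubxn11 (0.20) and Slc25a17 (0.32). Pdia2 has a single probe set, and no further probe set of the other 5 exceeded the floor. Apoa1 was nearest to Atp4b (4402, 793 and 102, distance 0.32), ahead of Smim38 (0.78) and the interferon-induced gene Ifi27 (0.93). With 3 arrays such a likeness is a description of these pools alone.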

How the data were processed

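The authors deposited linear intensities, with 1 value for each probe set on each array; how probes were summarised, background removed and arrays scaled is not given in the sources used here. Of 45101 probe sets, 34958 name 1 gene and 932 several, which were left out. Symbols were updated by gene identifier to RefSeq (34754 matched), and a gene was its probe set of highest mean. Values were raised to a floor, the highest over arrays of the 95th percentile of 80 receptor probe sets, before log2 was taken. With 1 array per lineage no test was made: genes were counted at 2-fold above or below both other arrays. Members and lists were chosen with earlier results of these data known. Named genes are the members, list genes past 2-fold, bright or undetected list examples, and the 3 nearest genes per member. Promoters are RefSeq windows of 250 bases before to 50 after a start. Alternatives covered 3 scalings, a 90th and a 99th percentile floor, a pseudocount, the mean over probe sets, transcript-specific probe sets and 4-fold. Python 3.11.15, numpy 2.4.6, pandas 2.3.3 and matplotlib 3.10.9 were used, and the counting was tested on simulated data.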

Additional observations from a re-analysis of the deposited data

How the results depend on the processing

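Of 69 alternative values of the ratios of Ttr, Hc and Apoa1 between arrays, 22 equal the reported value because the alternative does not touch them (such as another fold threshold, or other probe sets for a gene with 1) and say nothing of stability. Of the 47 that differ, 44 kept their direction and their side of 2-fold, and none turned its direction. The parietal to pit bound of Hc passed 2-fold with the BioB and BioC controls and with the 90th percentile floor, and the parietal to pit ratio of Ttr vanished with the 99th percentile floor (868), which leaves 81 genes. Ratios were also taken relative to the median gene of each setting, leaving out the 99th percentile floor, where that median rests on 3 genes. The log2 difference between zymogenic and parietal was then 4.05 to 4.33 for Ttr and 4.05 to 5.10 for Hc. For Apoa1, parietal minus zymogenic was 1.31 to 1.80. Scaling to 1 median or to BioB and BioC multiplies each array by a constant. That constant cancels here, apart from which genes pass the floor, so these scalings say little of stability. The median gene itself lay at -0.080 (quantile), -0.73 (1 median) and -1.81 (BioB and BioC) for zymogenic minus parietal. The counts of members above both others were 0 on the parietal and 1 on the zymogenic array, and 0 were below both on the pit array, with the 99th percentile floor and with transcript-specific probe sets, where 2 of the 5 genes have a value.

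Counts of related genes moved more. Above both others on the parietal array were 2 after quantile normalization, 18 with the BioB and BioC controls, 1 with the 99th percentile floor and 1 at 4-fold, in place of 4. On the pit array they were 0 with the BioB and BioC controls, 0 with the 99th percentile floor, 0 at 4-fold, and 1 each with the pseudocount, the mean over probe sets and transcript-specific probe sets, in place of 2. On the zymogenic array they were 9 with the 90th and 0 with the 99th percentile floor, 3 with the mean over probe sets and 1 at 4-fold, in place of 5. Below both others on the pit array were 6 with the 90th percentile floor and 0 with the 99th or at 4-fold, in place of 3. On the zymogenic array they were 6 with the BioB and BioC controls and with the 90th percentile floor, 0 with the 99th or at 4-fold, and 1 with transcript-specific probe sets, in place of 3. A stricter floor or fold leaves fewer genes by construction; otherwise the cause was not tested. Signal over background limits Hc on the parietal array and Apoa4 and Apob throughout. No paired analysis was possible because each lineage has 1 array.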

Other observations

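Protein-coding genes next to the members in the genome, by their order in RefSeq, were read on the same arrays. Apoa1 lies in a cluster with Apoc3, Apoa4 and Apoa5. Apoc3, an inhibitor of lipoprotein lipase, read 5.51, 0.54 and 3.88 in the parietal, zymogenic and pit samples, and Apoa5 read 0.69, 7.01 and 9.28, so both were under the floor. Apoa4 was above it on the parietal and zymogenic arrays (38.0 and 36.2). On the other side of Apoa1, Sik3, a kinase, was under the floor.

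Apoe lies in a cluster with Apoc1, Apoc4 and Apoc2. Apoc2 was above the floor on the zymogenic array alone (85.1), while Apoc1 (2.66, 2.18 and 9.74 on the parietal, zymogenic and pit arrays) and Apoc4 (1.31, 2.51 and 0.46) were under it, as Apoe was. Nectin2, an adhesion protein on the far side of the neighbour Tomm40, read 50.9, 7.45 and 46.6. Dsg2, the desmosome cadherin beside Ttr, read 123, 22.2 and 297, with the zymogenic array lowest where Ttr was highest. The 2 genes nearest to Hc on one side, Traf1 and Phf19, were under the floor on every array.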
